A study of Arabidopsis thaliana with 9 samples.

Results

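The WRKY transcription factors were followed in the transcriptomes of red light-grown *Arabidopsis thaliana* seedlings. The 48 genes are a list of WRKY loci given by name. They are 48 of the 33602 genes in the expression tables, and a further 24 annotated WRKY genes were not on the list. The members were divided into 27 that are known to respond to pathogens, wounding, salicylic acid or other stress (among them *WRKY18*, *WRKY33*, *WRKY40*, *WRKY46* and *WRKY53*) and 21 others. The division rests on textbook knowledge and does not mean that the others are unresponsive to stress.

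RNA was taken from whole seedlings, 4 d old, kept in constant red light of 94 μmol/m2/s, with 3 libraries for each of 3 genotypes. Col-0 was the wild type, *bbx11-1* a loss-of-function line of the B-box protein gene *BBX11*, and *pif4-2* a mutant of the bHLH factor gene *PIF4*. The labels name Col-0 as the control of the *BBX11* line, and the same libraries are the only wild type against which *pif4-2* could be compared. Each mutation was represented by 1 line, and all the genotypes, Col-0 included, received the same light. BBX11 and PIF4 both act in signaling from the red light photoreceptor phyB, and the comparisons ask which transcripts depend on either protein in red light.

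WRKY factors are plant DNA-binding proteins that recognize the W-box, a short element ending the core TTGAC with a pyrimidine. Many of their genes are switched on within minutes of pathogen contact, wounding or salicylic acid, and many carry W-boxes in their own promoters, so that WRKY proteins act on each other's genes. Activity is set further by mitogen-activated protein kinases, which phosphorylate some WRKY proteins, and by VQ proteins, small partners that bind the WRKY domain. Other members act in development, for instance in trichomes, pollen or the zygote.

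Values are FPKM, sequenced fragments scaled by transcript length and by library depth, and can be compared between genes as levels per length. In Col-0, *PIF4* gave 25.72 to 35.23 FPKM. The *pif4-2* libraries gave 16.25 to 17.51, a fall by 0.82 on the log2 scale (limma, Benjamini-Hochberg adjusted p = 0.0012). *BBX11* gave 7.66 to 10.72 FPKM in *bbx11-1*, below all Col-0 libraries, but Col-0 replicate 3 stood at 78.24 FPKM against 15.72 and 16.37 in replicates 1 and 2, and the difference did not pass (limma adjusted p = 0.231). On the first principal component of all tested genes, replicates 1 of Col-0 and of *bbx11-1* (-30.0 and -22.1) stood apart from replicates 2 and 3 of these genotypes (-6.73 to -0.55). The *pif4-2* libraries lay at 20.8 to 23.2 on this component. Same-numbered libraries of Col-0 and *bbx11-1* deviated together, most clearly for number 1, but not with those of *pif4-2*. The labels give no batch, and a batch shared by the *pif4-2* libraries and the *pif4-2* genotype cannot be told apart. The counts, medians, sums and calls of members are also given without replicates 1 of Col-0 and *bbx11-1*. The photosynthetic gene *LHCB1.3* gave at least 11295.63 FPKM in every library. A second one, *LHCB3*, had means of 2608.2 FPKM in Col-0 and 1891.8 in *pif4-2* (limma adjusted p = 0.198). The root endodermis gene *CASP1* gave 34.87 to 41.99 FPKM in Col-0, 33.31 to 42.77 in *bbx11-1* and 29.85 to 33.61 in *pif4-2*, there below all Col-0 libraries (limma adjusted p = 0.246). The root gene *COBL9* was higher in the mean in *pif4-2* (2.25 against 1.83 FPKM). Whether the genotypes differed in tissue composition was not tested. The stomatal genes *FAMA* and *MYB60* were lowest in Col-0 replicate 1 (2.79 and 3.09 FPKM). The low values of the tables fit depths of 16.2 to 22.2 M fragments per library, estimated here because totals were not given.

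A gene was tested if its mean reached 1 FPKM in at least 1 genotype, and was called changed at an adjusted p below 0.05 with a difference of at least 2-fold. Fold changes are differences on log2(FPKM + 0.5), a scale on which the change of weak genes is compressed. Of the 48 members 37 were tested, and each of these reached the minimum in all the genotypes, so that none passed the filter only through a genotype in which it was high. They comprised 21 of the 27 stress-inducible and 16 of the 21 other members.

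In *pif4-2*, 5 members rose at least 2-fold compared to Col-0: *WRKY18*, *WRKY33*, *WRKY40*, *WRKY53* and *WRKY70*. All are stress-inducible. In *bbx11-1*, 2 of them, *WRKY40* and *WRKY18*, passed the same threshold. No tested member was called lower in either mutant, and none of the 16 others tested changed. Over all 19169 genes tested, 0.783% were called higher and 0.35% lower in *pif4-2*, and 0.0887% higher and 0.0574% lower in *bbx11-1*.

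**Figure D1:**
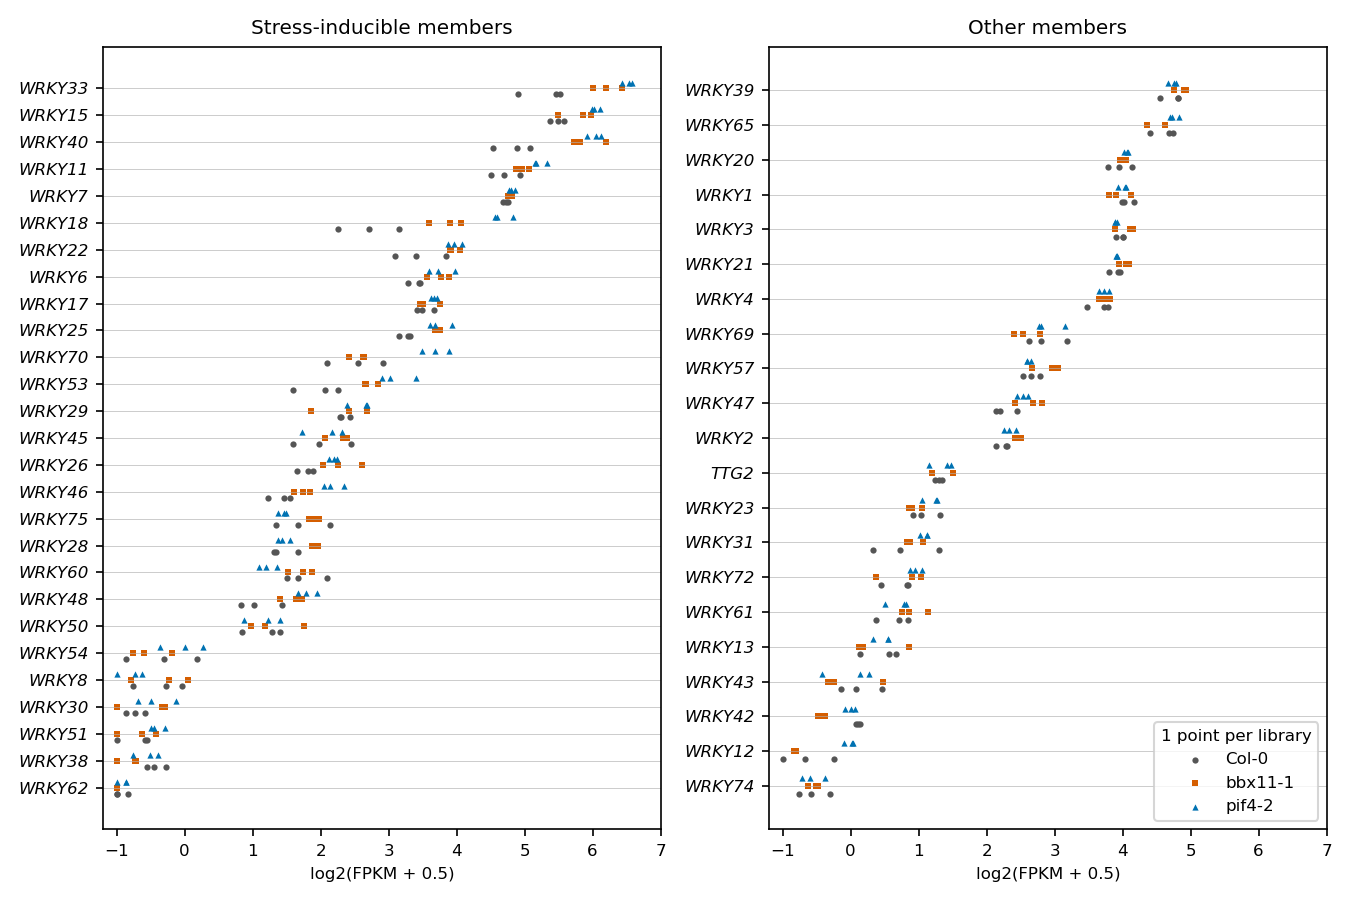
Level of each of the 48 members in each of the 9 libraries, as log2(FPKM + 0.5), 1 point per library (circles Col-0, squares bbx11-1, triangles pif4-2), with the 27 stress-inducible members on the left and the 21 others on the right, ordered by mean level. The pif4-2 points of WRKY18, WRKY33, WRKY40, WRKY53 and WRKY70 lie to the right of all Col-0 points, while the 3 genotypes overlap for most of the other members.

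The first group to describe is IIa, the trio *WRKY40*, *WRKY18* and *WRKY60*, whose proteins bind one another and are known to restrain basal defence and abscisic acid responses. *WRKY40* (AT1G80840, chr1:30383561-30385499, plus strand, TAIR10.1) was at 22.76, 33.15 and 29.06 FPKM in Col-0, at 55.87, 52.55 and 72.71 in *bbx11-1*, and at 65.60, 69.30 and 59.72 in *pif4-2*. Every library of either mutant was above every Col-0 library, while the mutants overlapped with each other. The mean rose from 28.3 ± 5.23 FPKM (SD, n = 3) to 60.4 ± 10.8 in *bbx11-1* and 64.9 ± 4.83 in *pif4-2*. On the log2 scale the differences were 1.08 (SE 0.145, limma, Benjamini-Hochberg adjusted p = 0.0131) and 1.20 (SE 0.145, adjusted p = 0.00093), and between the mutants *bbx11-1* minus *pif4-2* was -0.11, with a 95% interval of -0.43 to 0.21.

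*WRKY18* (AT4G31800, chr4:15382777-15385100, plus strand) gave 4.26, 8.36 and 6.03 FPKM in Col-0, 16.28, 11.58 and 14.46 in *bbx11-1*, and 27.90, 23.20 and 23.64 in *pif4-2*. The libraries of the genotypes did not overlap, with Col-0 lowest, *bbx11-1* between and *pif4-2* highest. The ratio of the mean levels was 2.27 for *bbx11-1* and 4.01 for *pif4-2*, the widest difference from Col-0 among the tested members. The log2 difference was 1.15 in *bbx11-1* (SE 0.196, limma adjusted p = 0.0336) and 1.96 in *pif4-2* (SE 0.196, adjusted p = 0.00039). The step from *pif4-2* to *bbx11-1*, -0.81 with a 95% interval of -1.24 to -0.38, did not pass after adjustment (limma adjusted p = 0.0616). It passed under 4 of 19 other settings, among them that with only these genotypes in the fit (limma adjusted p = 0.0128). Under the other 15 it did not pass (highest limma adjusted p = 0.231).

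*WRKY60* (AT2G25000) went with neither partner. It stood at 3.75, 2.34 and 2.69 FPKM in Col-0, at 3.18, 2.83 and 2.38 in *bbx11-1*, and at 1.63, 2.06 and 1.78 in *pif4-2*. The *pif4-2* libraries were all below those of Col-0, by -0.54 on the log2 scale, but the difference did not pass the adjustment (limma adjusted p = 0.115).

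*WRKY33* (AT2G38470, chr2:16108235-16110766, plus strand) is the group I factor needed for resistance to necrotrophic fungi and for synthesis of the antimicrobial camalexin, and it is a substrate of the kinases MPK3 and MPK6. It had the highest mean level of all 48 members. Col-0 libraries gave 29.34, 45.35 and 43.44 FPKM, *bbx11-1* 72.70, 63.59 and 85.59, and *pif4-2* 92.57, 95.49 and 86.07. No library of one genotype reached into the range of another, and the order was Col-0, *bbx11-1*, *pif4-2*. The log2 difference from Col-0 was 1.23 in *pif4-2* (SE 0.154, limma adjusted p = 0.0011) and 0.92 in *bbx11-1* (SE 0.154, adjusted p = 0.032), the latter past the adjusted p but short of 2-fold. The mutants differed by -0.31, with an interval of -0.65 to 0.03.

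The group III factors include *WRKY53*, a regulator of leaf senescence, *WRKY70*, which stands between salicylic acid and jasmonic acid defence, and *WRKY46*, which shares roles with both in basal resistance. *WRKY53* (AT4G23810, chr4:12392370-12393982, minus strand) was at 2.53, 4.27 and 3.66 FPKM in Col-0, 5.85, 6.65 and 5.77 in *bbx11-1*, and 7.65, 10.05 and 6.95 in *pif4-2*. Again the order was Col-0, *bbx11-1*, *pif4-2*, without overlap. It rose in *pif4-2* by 1.14 (SE 0.174, limma adjusted p = 0.0036). The difference of 0.75 in *bbx11-1* did not pass (limma adjusted p = 0.116). It passed under 1 of 19 other settings, with the replicate number as a block in the fit (limma adjusted p = 0.0338). Under the other 18 it did not pass (highest limma adjusted p = 0.307).

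*WRKY70* (AT3G56400, chr3:20908711-20910623, minus strand) separated the mutants. Its levels were 3.76, 7.04 and 5.34 FPKM in Col-0, 5.71, 4.83 and 5.64 in *bbx11-1*, and 12.29, 10.69 and 14.32 in *pif4-2*. All *pif4-2* libraries were above all others, and the *bbx11-1* libraries lay within the Col-0 range. *WRKY70* rose in *pif4-2* by 1.17 (SE 0.183, limma adjusted p = 0.0040), while the *bbx11-1* difference was 0.04, with a 95% interval of -0.36 to 0.44. It was the single member that differed between the mutants, lower in *bbx11-1* than in *pif4-2* by -1.13 (SE 0.183, limma adjusted p = 0.0101), where 0.224% of all genes tested were called lower. Without *pif4-2* replicate 3 the adjusted p of this last difference became 0.0552.

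*WRKY46* (AT2G46400) was at 2.26, 2.42 and 1.83 FPKM in Col-0, 2.84, 3.10 and 2.54 in *bbx11-1*, and 3.65, 4.56 and 3.90 in *pif4-2*, again in that order without overlap. Its rise in *pif4-2* was below 2-fold, 0.77 on the log2 scale (SE 0.137, limma adjusted p = 0.0085), and its *bbx11-1* difference of 0.32 did not pass (adjusted p = 0.432). The 4 other group III members, *WRKY30*, *WRKY38*, *WRKY54* and *WRKY62*, which respond to salicylic acid or oxidative stress, stayed below the filter at 0 to 0.71 FPKM.

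**Figure D2:**
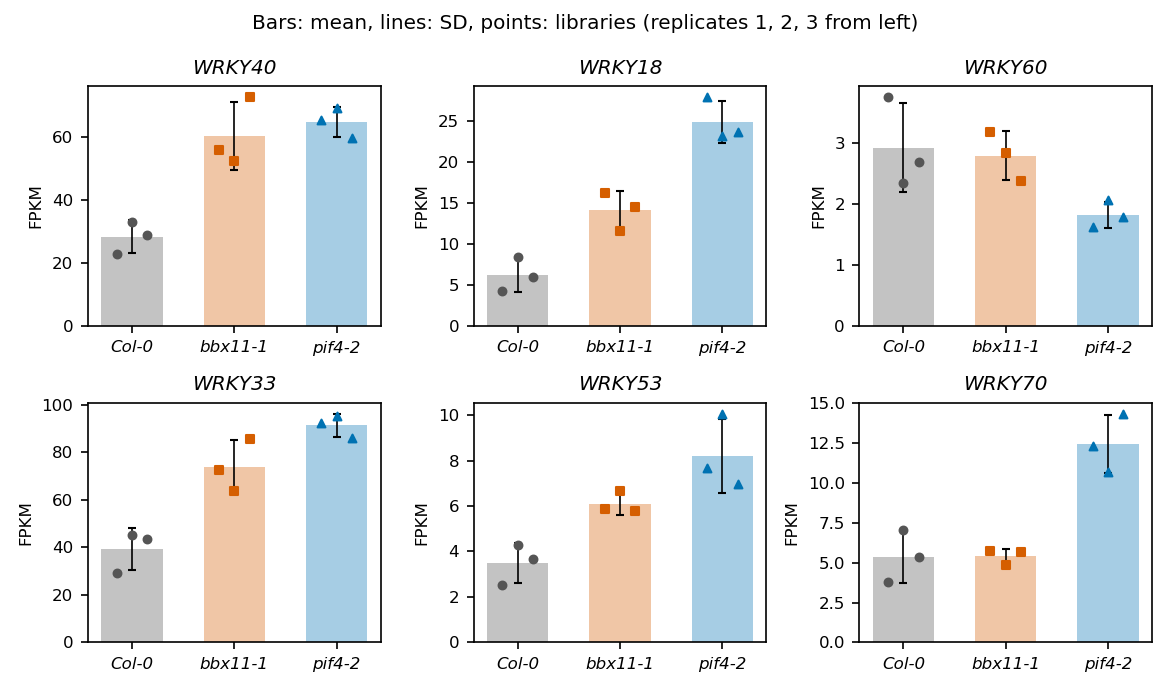
FPKM of WRKY40, WRKY18, WRKY60, WRKY33, WRKY53 and WRKY70 by genotype, with bars for the mean of 3 libraries, lines for the SD and points for the libraries, replicates 1, 2 and 3 from left. The libraries of WRKY18, WRKY33 and WRKY53 are ordered Col-0, bbx11-1, pif4-2 without overlap, WRKY40 is at a like level in both mutants (means of 60.4 and 64.9 FPKM), WRKY70 is high in pif4-2 alone, and WRKY60 is lowest in pif4-2.

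Without the fold threshold, 10 of the 21 stress-inducible members tested passed the adjusted p as higher in *pif4-2*, against 2.88% of all genes tested, and 3 in *bbx11-1* (*WRKY18*, *WRKY33* and *WRKY40*), against 0.271%. None of the 16 others tested passed with limma in either mutant, and at an unadjusted p below 0.05 they numbered 0 in *pif4-2* and 2 in *bbx11-1*, against 16.6% and 10.7% of all genes. Beside *WRKY46*, the *pif4-2* members that passed below 2-fold were *WRKY11* and *WRKY15* of the calmodulin-binding group IId, *WRKY25*, a group I relative of *WRKY33* with a role in heat tolerance, and *WRKY48*, a group IIc restrainer of basal resistance. *WRKY11* was at 22.21, 25.44 and 29.98 FPKM in Col-0, 28.82, 32.85 and 30.58 in *bbx11-1*, and 35.06, 39.82 and 35.55 in *pif4-2*, with *pif4-2* above all the rest (0.51, limma adjusted p = 0.0196). *WRKY15* was at 44.60, 47.36 and 40.84 FPKM in Col-0, 62.21, 57.26 and 44.53 in *bbx11-1*, and 62.81, 68.47 and 64.27 in *pif4-2*. Its *bbx11-1* replicate 3 fell within the Col-0 range, and only the *pif4-2* difference passed (0.55, limma adjusted p = 0.017).

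*WRKY25* was unlike these in having both mutants at one level. It gave 8.35, 9.20 and 9.47 FPKM in Col-0, 12.77, 12.34 and 13.02 in *bbx11-1*, and 12.29, 14.74 and 11.63 in *pif4-2*. All mutant libraries were above all Col-0 libraries, with log2 differences of 0.49 in *pif4-2* (limma adjusted p = 0.016) and 0.48 in *bbx11-1* (adjusted p = 0.0769). *WRKY48* was weakly expressed, at 1.28, 2.20 and 1.53 FPKM in Col-0, 2.62, 2.14 and 2.79 in *bbx11-1*, and 2.67, 2.94 and 3.36 in *pif4-2*. Its *pif4-2* difference of 0.70 was close to the threshold (limma adjusted p = 0.0429) and was lost under 11 of the 19 other settings.

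The remaining 11 stress-inducible members tested, *WRKY60* among them, passed in no comparison. *WRKY6*, *WRKY22* and *WRKY26* had all mutant libraries above all Col-0 libraries, as had *WRKY7* by a ratio of mean levels of 1.06 in *bbx11-1* and 1.07 in *pif4-2*. *WRKY28*, an activator of salicylic acid synthesis, went the other way round from *WRKY70*: its *bbx11-1* libraries (3.39, 3.34 and 3.15 FPKM) were above those of Col-0 (1.99, 2.68 and 2.03) and of *pif4-2* (2.10, 2.44 and 2.21). That difference from Col-0, 0.48, did not pass (limma adjusted p = 0.191). *WRKY17*, *WRKY29*, *WRKY45*, *WRKY50* and *WRKY75* overlapped between Col-0 and each mutant. *WRKY8* and *WRKY51*, like the group III members named above, were below the filter.

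Counted over libraries, 11 of the 21 tested stress-inducible members had every *bbx11-1* library above every Col-0 library, against 1 of the 16 others (*WRKY2*) and 6.78% of all genes tested. In *pif4-2* it was 14 of 21, against 1 of 16 (*WRKY72*) and 10.2% of all genes, and *WRKY60* was the single tested member with every *pif4-2* library below Col-0 (12.1% of all genes). Over all 27 listed stress-inducible genes the median log2 difference was 0.25 in *bbx11-1* and 0.30 in *pif4-2*, with 22 of 27 above 0 in each. Over the 21 others it was 0.04 and 0.05, with 13 and 15 above 0. The median of all genes tested was 0.0035 in *bbx11-1* and -0.02 in *pif4-2*, with 51.1% and 44.9% of genes above 0. Between the mutants, 7 tested stress-inducible members had every *bbx11-1* library below every *pif4-2* library, against 9.8% of all genes, and 3 (*WRKY28*, *WRKY60* and *WRKY75*) had them all above, against 13.5%.

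Without replicates 1 of Col-0 and *bbx11-1*, fewer libraries made separation easier for every gene. In *bbx11-1*, 14 of the 21 tested stress-inducible members then lay above Col-0, against 5 of the 16 others and 18.1% of all genes. In *pif4-2* it was 14 of 21, against 3 of 16 and 15.6% of all genes. The stress-inducible medians became 0.20 in *bbx11-1* and 0.32 in *pif4-2*. The pseudocount moved the *pif4-2* median further, to 0.51 with 0.1 and 0.22 with 1 added to the FPKM.

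The summed level gives the same contrast by weight of transcript, with *WRKY33*, *WRKY15* and *WRKY40* as the largest contributors. The stress-inducible members summed to 219.5 to 265.3 FPKM in Col-0, to 341.8 to 370.5 in *bbx11-1* and to 397.6 to 435.4 in *pif4-2*, 3 ranges that did not overlap, and replicates 2 and 3 of Col-0 alone gave 265.3 and 251.1. The others summed to 138.5 to 163.9, 155.9 to 160.8 and 157.2 to 162.4 FPKM, within 1 range. In such bulk samples, more cells expressing a gene and more RNA per cell cannot be told apart.

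Of the 21 others, those with the highest means were *WRKY39*, a group IId gene, *WRKY65* of group IIe and *WRKY20* of group I. *WRKY39* was at 27.74, 22.86 and 27.69 FPKM in Col-0, 30.10, 26.52 and 29.53 in *bbx11-1*, and 27.14, 24.77 and 26.56 in *pif4-2*. *WRKY65* was at 26.26, 20.60 and 25.10 FPKM in Col-0, 20.06, 24.04 and 19.97 in *bbx11-1*, and 25.34, 27.78 and 26.06 in *pif4-2*. *WRKY20* was at 14.98, 13.30 and 17.08 FPKM in Col-0, 15.24, 16.02 and 15.14 in *bbx11-1*, and 16.27, 16.47 and 15.66 in *pif4-2*. In all 3 the mutants overlapped with Col-0, and the log2 differences from Col-0 ran from -0.16 (*WRKY65*, *bbx11-1*) to 0.14 (*WRKY65*, *pif4-2*). For *WRKY20* in *pif4-2*, the 95% interval ran from -0.11 to 0.30. It was wider for the weak *WRKY72* (1.14 ± 0.246 FPKM in Col-0), from -0.20 to 0.70.

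The tested others also included *TTG2* (*WRKY44*), the trichome and seed coat factor (1.73 to 2.34 FPKM over all libraries), and *WRKY2*, which acts in pollen and zygote polarity (3.92 to 5.17 FPKM). *WRKY12*, *WRKY13*, *WRKY42*, *WRKY43* and *WRKY74* were below the filter. *WRKY42*, a regulator of phosphate supply, was at 0.56, 0.58 and 0.60 FPKM in Col-0, 0.27, 0.26 and 0.22 in *bbx11-1*, and 0.50, 0.44 and 0.54 in *pif4-2*. *WRKY12*, a repressor of secondary wall formation in the pith, was at 0.34, 0 and 0.13 FPKM in Col-0, 0.06, 0.06 and 0.07 in *bbx11-1*, and 0.43, 0.51 and 0.52 in *pif4-2*. Both had *bbx11-1* below *pif4-2* without overlap, and *WRKY42* had every library of either mutant below Col-0. The stress-inducible *WRKY38* likewise had *bbx11-1* (0.10, 0 and 0.11 FPKM) below Col-0 (0.23, 0.18 and 0.33). *WRKY12* and the stress-inducible *WRKY51* had every *pif4-2* library above every Col-0 library. *WRKY51* gave 0.23, 0.21 and 0.32 FPKM in *pif4-2* against 0.17, 0.18 and 0 in Col-0. None of these genes was tested, at levels where few fragments were counted. The share of all genes below the filter that separate in this way was not counted.

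**Figure D3:**
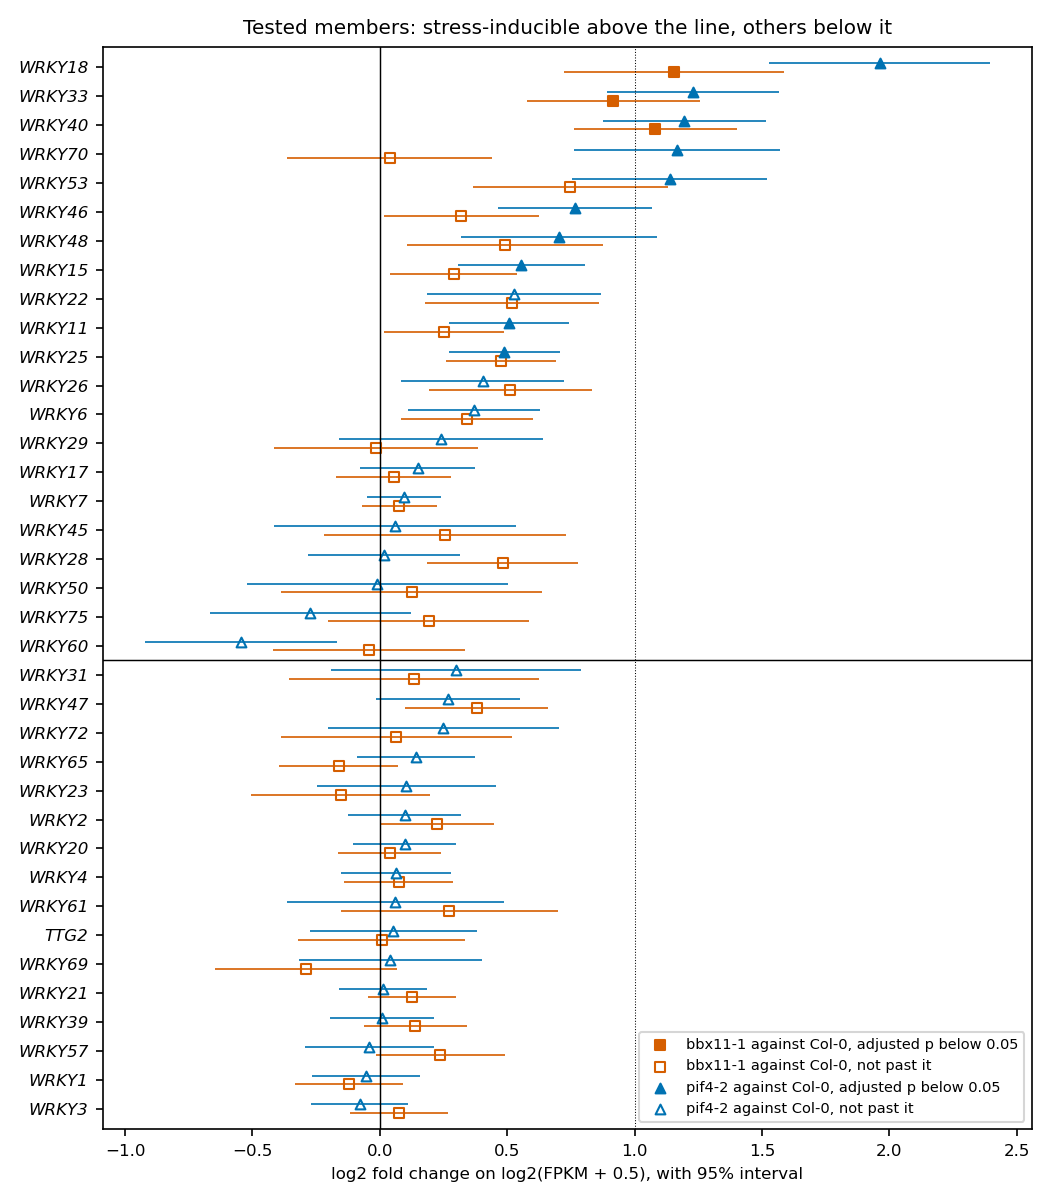
Difference of each tested member from Col-0 on log2(FPKM + 0.5) with its 95% interval, in bbx11-1 (squares) and pif4-2 (triangles), with filled symbols for an adjusted p below 0.05, the dotted line at 2-fold, and the 21 stress-inducible members above the horizontal line and the 16 others below it. Filled symbols occur only above the line, 10 for pif4-2 and 3 for bbx11-1. Both contrasts share the Col-0 libraries.

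By structural group of the listed genes, 3 of 3 tested in group III and 2 of 3 in IIa passed the adjusted p as higher in *pif4-2*. They were followed by 2 of 6 in IId, 2 of 9 in I and 1 of 7 in IIc, where 2.88% of all genes passed. The single IIc member, *WRKY48*, was lost under 11 of 19 other settings, and *WRKY11* of IId under 5. None of 5 in IIb or 4 in IIe passed. In *bbx11-1* the 3 that passed belonged to groups IIa (2) and I (1). Since groups IIa and III consist of stress-inducible members here, the structural groups and the stress-inducible class cannot be told apart for them. Of the 24 annotated WRKY genes that were not on the list, 13 were tested and none passed with limma in any of the 3 comparisons. At an unadjusted p below 0.05 there were 0, 0 and 2 of them, the 2 between the mutants, where 14.9% of all genes reached it. No structural group was assigned to the genes outside the list, so the counts by group cover the listed members alone.

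The promoters of members that moved together were compared for the W-box, searched on both strands as TTGACC and TTGACT, and for the G-box CACGTG, the element bound by PIF factors. The window was the 300 bases before the annotated gene start (RefSeq annotation of TAIR10.1). *WRKY33* is shown with *WRKY53* because both held several W-boxes, and *WRKY40* with *WRKY18* because they rose as well without one. Each is written 5′ to 3′ along the gene's strand, with W-boxes in capitals, where a match on the opposite strand reads as its reverse complement.
WRKY33 (chr2:16107935-16108234, plus strand): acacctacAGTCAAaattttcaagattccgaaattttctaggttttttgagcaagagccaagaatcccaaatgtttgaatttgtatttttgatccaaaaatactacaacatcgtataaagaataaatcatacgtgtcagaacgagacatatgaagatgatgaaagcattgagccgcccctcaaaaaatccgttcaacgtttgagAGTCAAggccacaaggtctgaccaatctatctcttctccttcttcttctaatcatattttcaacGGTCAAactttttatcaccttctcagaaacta
WRKY53 (chr4:12393983-12394282, minus strand): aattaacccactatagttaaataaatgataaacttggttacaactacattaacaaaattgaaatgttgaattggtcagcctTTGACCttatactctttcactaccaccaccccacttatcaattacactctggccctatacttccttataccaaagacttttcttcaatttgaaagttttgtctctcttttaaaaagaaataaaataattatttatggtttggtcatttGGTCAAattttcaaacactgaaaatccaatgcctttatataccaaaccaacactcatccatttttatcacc
WRKY40 (chr1:30383261-30383560, plus strand): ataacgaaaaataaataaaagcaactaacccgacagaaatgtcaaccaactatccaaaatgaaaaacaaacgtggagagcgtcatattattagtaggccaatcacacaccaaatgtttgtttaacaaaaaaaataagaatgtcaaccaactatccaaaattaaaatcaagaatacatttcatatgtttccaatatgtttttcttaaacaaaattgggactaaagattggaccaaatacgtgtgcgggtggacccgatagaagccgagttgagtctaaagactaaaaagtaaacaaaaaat
WRKY18 (chr4:15382477-15382776, plus strand): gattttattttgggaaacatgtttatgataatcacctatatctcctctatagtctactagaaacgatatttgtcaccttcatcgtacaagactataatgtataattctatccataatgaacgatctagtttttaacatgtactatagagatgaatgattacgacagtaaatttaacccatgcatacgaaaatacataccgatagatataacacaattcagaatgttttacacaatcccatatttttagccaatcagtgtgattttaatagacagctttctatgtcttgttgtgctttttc
In *WRKY33* the matches begin 292, 96 and 32 bases before the gene start, and in *WRKY53* 219 and 71 bases before it.

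Among the 27 stress-inducible members, 15 windows (55.6%) held at least 1 W-box and 8 (29.6%) held 2 or more. Among the 21 others it was 4 (19.0%) and 0, and among all 27443 protein-coding genes 32.3% and 7.91%. Of the windows with a W-box, those of *WRKY25*, *WRKY26* and *WRKY45* run into an annotated neighbouring gene. So do those of *WRKY7* and *WRKY61*, which held no W-box. Such windows were left in every count. Of the 10 members past the adjusted p in *pif4-2*, 6 held a W-box: *WRKY11*, *WRKY15*, *WRKY25*, *WRKY33*, *WRKY48* and *WRKY53*. The 4 without were *WRKY18*, *WRKY40*, *WRKY46* and *WRKY70*, which says only that these letters are not in this window. The G-box was found in 3 stress-inducible members (11.1%), 4 others (19.0%) and 7.09% of all protein-coding genes. *WRKY15*, with a G-box and 2 W-boxes, was the single member with a G-box that passed in *pif4-2*. A match is a description of the sequence, and binding was not measured.

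**Figure D4:**
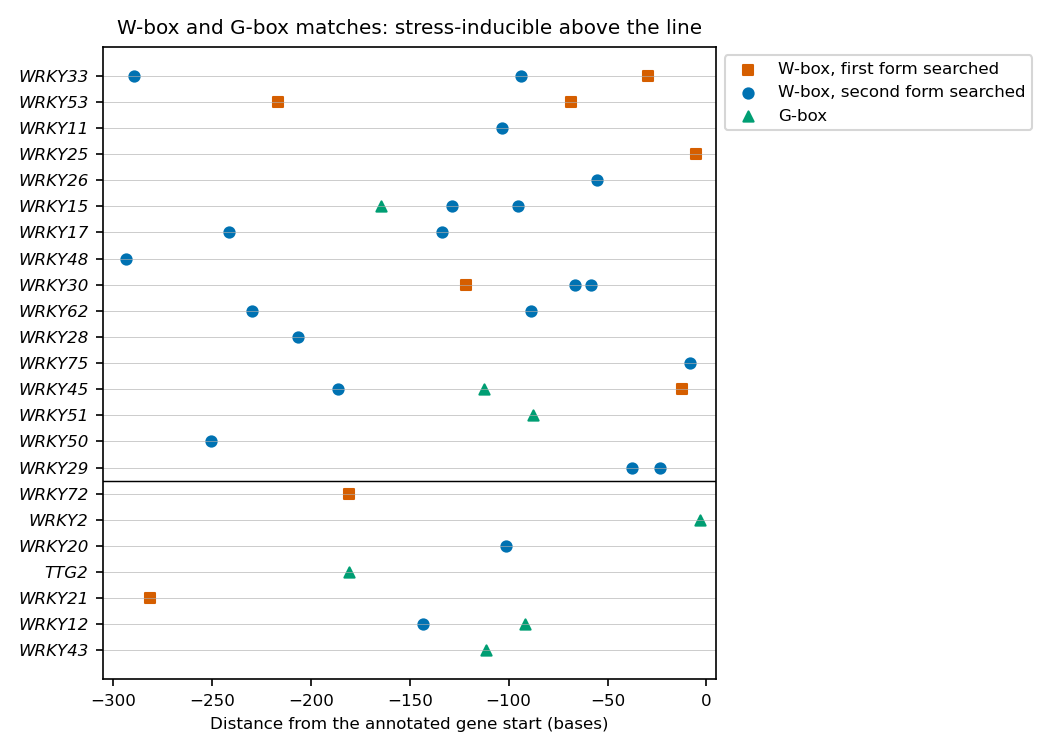
Position of each W-box match (squares and circles for the 2 forms searched) and G-box match (triangles) in the 300 bases before the annotated gene start, for the members with at least 1 match, with stress-inducible members above the line and others below it. W-boxes occur in 15 stress-inducible and 4 other members.

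The kinases, partners and receptors that act with WRKY factors, and genes that WRKY factors are known to control, were counted from further lists. Each count can be read against the 2.88% of all genes tested that passed as higher in *pif4-2* and the 0.271% in *bbx11-1*. Of 9 tested members of the mitogen-activated protein kinase cascade, 2 passed as higher in *pif4-2* and none in *bbx11-1*. *MPK3* was at 41.80, 55.67 and 52.69 FPKM in Col-0, 65.16, 65.42 and 69.21 in *bbx11-1*, and 96.16, 100.48 and 92.85 in *pif4-2*, in this order without overlap (*pif4-2* against Col-0 0.95, limma adjusted p = 0.00042). *MPK3* also passed as lower in *bbx11-1* than in *pif4-2* (-0.53, limma adjusted p = 0.0196), as did 0.902% of all genes tested. *MEKK1*, at the head of the cascade, differed by 0.55 in *pif4-2* (limma adjusted p = 0.0211). The other WRKY33 kinase, *MPK6*, gave 31.02 to 31.68 FPKM in Col-0 against 29.75 to 33.95 in *pif4-2*.

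Of 8 VQ protein genes, all tested, 2 passed as higher in *pif4-2*. The gene AT2G22880, annotated as a VQ motif protein, rose from 4.95, 9.29 and 5.03 FPKM in Col-0 to 14.78, 17.72 and 14.59 in *pif4-2* (1.28, limma adjusted p = 0.0051), with *bbx11-1* at 8.35, 9.04 and 11.83. *MKS1*, which links MPK4 to WRKY33, went from 4.27 to 5.04 FPKM in Col-0 to 6.50 to 9.17 in *pif4-2* (0.64, limma adjusted p = 0.0139). Of 7 genes of immune perception, *RBOHD*, the oxidase of the defence burst, and *PEPR1*, a receptor of danger peptides, passed as higher in *pif4-2* (0.76 and 0.39, limma adjusted p = 0.0040 and 0.0264). The receptors *FLS2* and *EFR* did not pass.

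Among 9 genes known to be controlled by WRKY factors, 6 reached 1 FPKM in every genotype, and of these 1 passed as higher and 1 as lower in *pif4-2*, where 1.95% of all genes tested passed as lower. *MYB51*, a regulator of indole glucosinolate synthesis, was higher in *pif4-2* (14.13, 16.77 and 13.15 FPKM) than in Col-0 (6.69, 8.01 and 7.76), by 0.92 (limma adjusted p = 0.0016). Its *bbx11-1* libraries (13.70, 11.75 and 10.50 FPKM) were above Col-0 and overlapped with *pif4-2*. The *bbx11-1* difference from Col-0, 0.64, did not pass (limma adjusted p = 0.0545). *PAD3*, which encodes the last enzyme of camalexin synthesis and is a target of WRKY33, fell from 8.02, 6.49 and 4.99 FPKM in Col-0 to 2.72, 2.75 and 2.68 in *pif4-2*. Its *bbx11-1* libraries (6.39, 3.45 and 5.20 FPKM) overlapped with Col-0, and that difference, -0.36, did not pass (limma adjusted p = 0.580). The *pif4-2* difference was -1.10 (SE 0.201, limma adjusted p = 0.0095). *CYP71A13*, an earlier enzyme of the same route, gave 1.95, 1.13 and 0.82 FPKM in Col-0 and 0.36, 0.30 and 0.41 in *pif4-2*. It entered the fit through its Col-0 level alone, and so these values are given with no test. *WRKY33* was thus highest and *PAD3* lowest in the same *pif4-2* libraries. *PR1*, the marker of salicylic acid responses, was listed at 0 in all *pif4-2* libraries and gave 0.08 to 0.77 FPKM in Col-0.

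**Figure D5:**
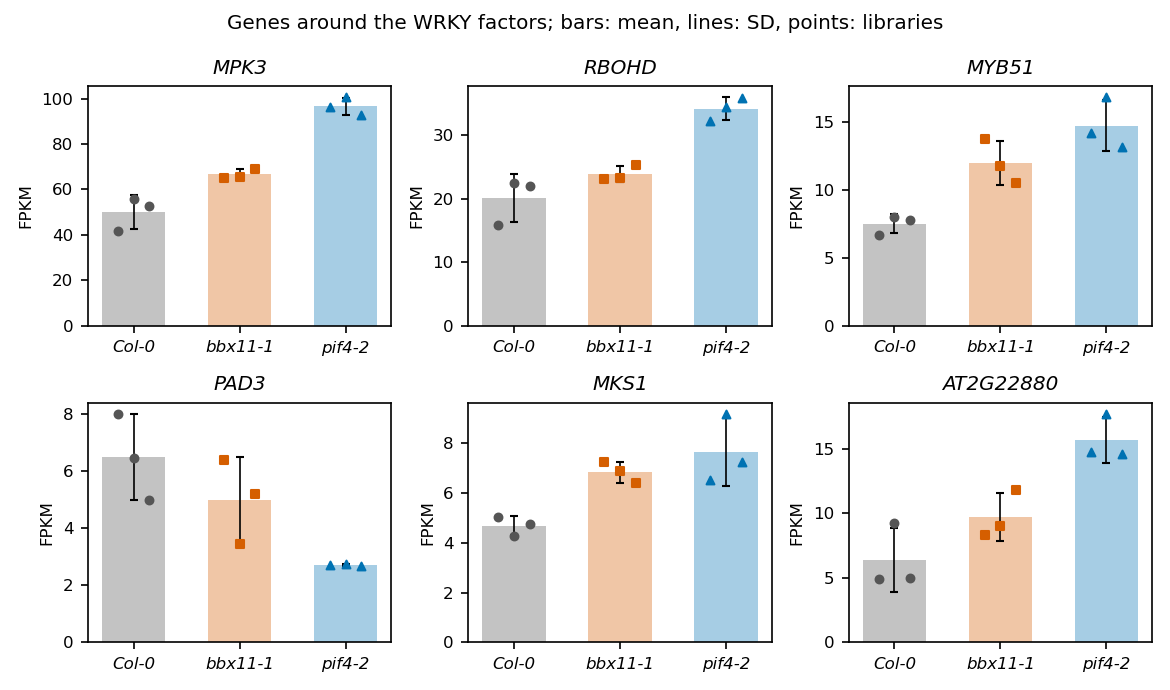
FPKM of MPK3, RBOHD, MYB51, PAD3, MKS1 and the VQ motif gene AT2G22880 by genotype, with bars for the mean of 3 libraries, lines for the SD and points for the libraries. MPK3, RBOHD and AT2G22880 are highest in pif4-2, PAD3 is lowest there, and MKS1 is above Col-0 in both mutants. MYB51 is also above Col-0 in both mutants, with its highest mean in pif4-2, but the libraries of the mutants overlap.

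Genes that respond within minutes to touch and wounding, stimuli that are known to induce several WRKY genes too, were followed as well. In *pif4-2*, 8 of the 14 listed passed as higher, 5 of them at least 2-fold, and 1 (*ZAT12*) passed in *bbx11-1*, where 2.88%, 0.783% and 0.271% of all genes tested did so. The touch gene *TCH4* was at 57.05, 110.18 and 71.54 FPKM in Col-0, 142.31, 131.54 and 131.70 in *bbx11-1*, and 279.92, 258.62 and 227.01 in *pif4-2* (*pif4-2* against Col-0 1.72, limma adjusted p = 0.00048). *ZAT12*, a zinc finger gene of the oxidative and wound response, gave 13.89 to 15.38 FPKM in Col-0, 24.13 to 27.98 in *bbx11-1* and 30.84 to 33.75 in *pif4-2*. The 14 genes summed to 437.6, 713.1 and 544.8 FPKM in Col-0, 781.1, 819.1 and 894.9 in *bbx11-1*, and 1186.6, 1178.4 and 1053.4 in *pif4-2*, and none was at 0 in any library. These sums had the order of genotypes seen for *WRKY18*, *WRKY33* and *WRKY53*, but not every gene of the list had it. On the log2 scale, 4 of the 14 were higher in the mean in *bbx11-1* than in *pif4-2* (*ERF5*, *ERF104*, *SZF2* and *CAF1a*). In *TCH2* and *TCH3* the *bbx11-1* libraries overlapped with Col-0. *JAZ10* differed from Col-0 by -0.28 in *bbx11-1* (limma adjusted p = 0.622). The part of touch or wounding in the WRKY result was not tested.

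The calls differed in how far they rested on single libraries. The *pif4-2* differences of *WRKY18*, *WRKY33*, *WRKY40*, *WRKY53* and *WRKY70* passed the adjusted p under all 19 other settings. Of the other *pif4-2* members, the adjusted p was lost for *WRKY46* under 1 (highest adjusted p = 0.0524), *WRKY25* under 2 (0.0709), *WRKY15* under 4 (0.0808), *WRKY11* under 5 (0.0967), each highest value being that without *pif4-2* replicate 2, and for *WRKY48* under 11. Col-0 replicate 1 was the lowest Col-0 library for each of *WRKY18*, *WRKY33*, *WRKY40*, *WRKY53* and *WRKY70*. Without it *WRKY53* and *WRKY70* came to 0.95 each in *pif4-2*, short of 2-fold, leaving 3 called. *WRKY53* was also short of 2-fold without *pif4-2* replicate 2 (0.99). The *bbx11-1* calls were less firm. The adjusted p of *WRKY40* was lost under 3 of 19 settings (highest adjusted p = 0.0679), and with the fold threshold it was not called under 6. *WRKY18* was not called under 13 (highest adjusted p = 0.138), and the adjusted p of *WRKY33* was lost under 9. Without replicates 1 of both Col-0 and *bbx11-1*, the *WRKY40* difference in *bbx11-1* was 0.98 (limma adjusted p = 0.016) and that of *WRKY18* 0.82 (adjusted p = 0.0652), so that neither was called. *WRKY33* then came to 0.73 (adjusted p = 0.0367) and *WRKY53* to 0.59 (adjusted p = 0.211).

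Some members share sequence with neighbours. The exons of *WRKY40*, *WRKY33* and *WRKY53* overlap those of genes on the opposite strand, by 51, 26 and 311 exonic bases, and whether counting used the strand is not given in the sources used here. These neighbours (AT1G80850, AT2G38480 and AT4G23800) differed from Col-0 by -0.18, 0.07 and -0.20 in *bbx11-1* and by -0.0029, 0.11 and 0.05 in *pif4-2*, none past the test. AT4G23800 was the stronger of its pair, with a mean of 32.8 FPKM in Col-0 against 3.49 for *WRKY53*. How far its reads enter the *WRKY53* values was not tested. Of the 50-base stretches in the *WRKY40* exons, 4.07% occur at more than 1 place in the genome. *WRKY33* also overlaps AT2G08965, not analysed here.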

How the data were processed

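RNA-seq libraries of whole seedlings of the wild type Col-0 and of the mutants *bbx11-1* and *pif4-2* (3 each, described in the methods as independent biological replicates) were analysed from the FPKM tables deposited by the authors, 1 per library. The authors mapped reads to TAIR10 with HISAT2, counted them per gene with HTSeq and used edgeR (3.0.8 in the submitters' processing notes). How FPKM was computed from the counts, with which gene lengths and strand setting, is not given in the sources used here, and no library totals were used. Depth was estimated from the steps between low FPKM values.

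The 19169 of 33602 genes whose mean reached 1 FPKM in any genotype were fitted on log2(FPKM + 0.5) with limma 3.58.1 in R 4.3.3 (moderated test with trend, all 9 libraries, 6 residual degrees of freedom), with Benjamini-Hochberg adjustment over all genes tested. The p-values are from both-sided tests and measure the spread between these libraries. No count model was used. Samples were grouped by the genotype label, and no column of per-sample values was left unused. The comparisons between the mutants and Col-0 share the Col-0 libraries.

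The 48 members, the context lists and the tests were chosen with earlier results of these data known. The split into stress-inducible and other members rests on textbook knowledge, and the structural groups were added after values were seen, with the paired WRKY signature of group I and the zinc finger type of group III checked in the annotated coding sequences. Every member is accounted for. Values in every library are given for members past an adjusted p of 0.05 in any comparison, for *WRKY18*, *WRKY33*, *WRKY40*, *WRKY46* and *WRKY53*, for the 3 other members with the highest mean, and, chosen after their values were seen, for *WRKY60*, *WRKY28*, *WRKY42* and *WRKY12*. Those of *WRKY38* and *WRKY51* are given in part, also chosen after their values were seen. Context genes are those past the adjusted p, at most 4 a list by smallest p, with *MPK6*, *FLS2*, *EFR* and *PR1* added after seeing the data. Of the touch list, FPKM values are given for *TCH4* and *ZAT12* only. *ERF5*, *ERF104*, *SZF2*, *CAF1a*, *TCH2*, *TCH3* and *JAZ10* are named beside them, chosen after their values were seen.

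Deviations of same-numbered libraries from their genotype means correlated between Col-0 and *bbx11-1* over the tested genes (r = 0.549, 0.287 and 0.275 for numbers 1, 2 and 3). They did not between either and *pif4-2* (-0.0082 to 0.0921). Libraries of Col-0 and *bbx11-1* with unlike numbers gave -0.410 to 0.202, the highest for Col-0 3 with *bbx11-1* 2. The pairing of Col-0 with *bbx11-1* by number is thus clear for number 1 and weakly shown for numbers 2 and 3. Promoter windows and motifs were read from the RefSeq genome and annotation of TAIR10.1 with Biopython 1.88, and the fit was tested on simulated data. Alternatives were the pseudocount, the filter, median-of-ratios and quantile scaling, the fold threshold, the libraries in the fit, the trend, the replicate block and each library left out.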

Additional observations from a re-analysis of the deposited data

How the results depend on the processing

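The number of members called in *bbx11-1* against Col-0, 2 as reported, was 0 with no filter and with only the genotypes compared in the fit, 1 with median-of-ratios scaling, with quantile normalization and without the trend, 0 to 3 with a library left out (0 without Col-0 replicate 1, Col-0 replicate 3 or *bbx11-1* replicate 3), and 0 without both replicates 1, a setting chosen after seeing the data. In *pif4-2* against Col-0 it was 5 as reported, 10 with no fold threshold, 3 to 5 with a library left out (3 without Col-0 replicate 1), and 3 without both replicates 1. Between the mutants it was 1 as reported and 0 to 1 with a library left out (0 without *pif4-2* replicate 3). With the replicate block the counts were 2, 5 and 1, and among the named members the block changed no other call than that of *WRKY53* in *bbx11-1*. Over 39 differences of the named members and 741 comparisons with other settings, 677 kept direction and side of the threshold, 49 lost it, 5 gained it and 10 changed sign, and none of these 10 had passed. The sign changes were *WRKY70* in *bbx11-1* (-0.17 to 0.24 with a library left out, and -0.21 without both replicates 1), *WRKY20* in *bbx11-1* (-0.048 to 0.13 with a library left out), *WRKY25* between the mutants (-0.080 to 0.085 with a library left out) and *WRKY39* in *pif4-2* (-0.00048 with quantile normalization, -0.083 to 0.054 with a library left out). The cause was not tested. The median of the stress-inducible members between the mutants, -0.11, was -0.24 with a pseudocount of 0.1. Median-of-ratios scaling and quantile normalization moved the median of all genes by under 0.1 on the log2 scale. The 11 members below the filter were not tested, and 3 libraries a genotype limit the tests to the spread seen among them.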
